A study of Mus musculus with 6 samples.

Results

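The immunoglobulin variable (V) segment genes encode the part of an antibody chain that contacts antigen. The files listed 348 genes whose symbols begin with Ighv, Igkv or Iglv. Of these, 160 had at least 1 read and 81 reached 10 or more reads summed over the 6 libraries. These 81 genes are described here, and the whole table holds 54232 genes. They comprised 33 of 185 listed Ighv genes of the heavy chain, 45 of 160 Igkv genes of the kappa light chain and all 3 Iglv genes of the lambda light chain. The 81 genes held 4706 of the 4998 V reads. The read sum chose them, so it is a description: Igkv9-123, Igkv6-17, Igkv4-68 and Ighv1-20 lay just inside with 10 reads each, and Igkv3-10, Igkv1-99 and Ighv8-12 just outside with 9 each. That sum did not use the treatment groups, but it was filled mostly by the libraries with many V reads.

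All 6 libraries came from esophagus of mice that drank 4-nitroquinoline 1-oxide (4-NQO), a carcinogen, at 100 µg/ml for 16 weeks from 8 weeks of age and normal water for 12 weeks after that. Both groups received 10 µg of antibody intraperitoneally 2 times a week from 2.5 weeks before sacrifice. In 3 libraries the antibody was DTA-1, which activates GITR, a co-receptor of T cells, and in the other 3 it was an isotype control. Peeled tissue, enriched for invading cells, was used. The sources used here do not give the strain, the sex or whether each library is 1 mouse. p-values therefore measure the spread between these libraries, which may be partly technical.

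A V segment is one of many germline gene pieces at each antibody locus. In each developing B cell, recombination joins 1 heavy chain V segment to a D and a J segment and 1 light chain V segment to a J segment, and the other V segments of those loci stay largely silent. The joined V segment is then transcribed together with a constant gene such as Ighm or Igkc. Plasma cells hold far more antibody mRNA than resting B cells, so V reads weight each cell by its antibody output. Many reads on a single segment can come from few cells that share a rearrangement or from different cells that chose the same segment, and read counts per gene cannot tell these apart.

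The libraries differed widely before any V segment was considered. Total counts were 23147873 to 29065162. Summed over lists of marker genes, red cell genes stood at 2905 CPM (the usual per-library count unit, here with TMM-scaled library sizes) in DTA-1 replicate 2 against 85.3 to 171.8 CPM elsewhere. Adipocyte genes stood at 1692 CPM in DTA-1 replicate 3 and 596.8 in isotype replicate 2, against 156.7 to 299.4 in the other libraries. Squamous epithelium genes summed to 8312 and 9690 CPM in DTA-1 replicates 2 and 3 and to 30057 to 41095 in the other libraries, and striated muscle genes to 48068 to 108126 CPM in isotype and 115400 to 165291 in DTA-1 libraries. Airway and lung genes (at most 0.98 CPM summed) and thyroid genes (at most 2.18 CPM) were close to 0. The part of these tissue differences in the V segment values was not tested. In bulk tissue, fewer B lineage cells and less antibody mRNA per cell cannot be told apart.

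The segments that led a library are shown first, since the results turn on them and on whether reads can be assigned to them. Each line gives the last 240 bases of the germline transcript in GENCODE release M21 (GRCm38), all within the second exon, which encodes the variable domain. Capitals mark the bases that differ from the most similar other functional V segment.

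Igkv4-50: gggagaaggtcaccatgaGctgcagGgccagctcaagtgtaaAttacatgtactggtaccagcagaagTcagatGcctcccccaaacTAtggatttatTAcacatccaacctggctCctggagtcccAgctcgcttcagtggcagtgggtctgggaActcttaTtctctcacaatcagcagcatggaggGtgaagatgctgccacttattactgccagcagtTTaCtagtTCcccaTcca

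Ighv1-26: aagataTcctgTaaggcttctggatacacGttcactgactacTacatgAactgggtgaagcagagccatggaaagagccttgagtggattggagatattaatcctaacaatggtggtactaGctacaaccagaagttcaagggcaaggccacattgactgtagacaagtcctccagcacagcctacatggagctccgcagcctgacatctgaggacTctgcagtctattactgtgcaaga

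Igkv12-89: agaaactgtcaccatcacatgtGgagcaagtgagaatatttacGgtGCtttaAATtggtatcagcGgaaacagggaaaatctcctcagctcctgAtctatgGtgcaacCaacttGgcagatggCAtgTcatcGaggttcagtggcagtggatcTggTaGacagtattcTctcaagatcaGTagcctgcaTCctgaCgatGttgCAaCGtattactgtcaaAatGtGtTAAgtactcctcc

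Igkv6-15: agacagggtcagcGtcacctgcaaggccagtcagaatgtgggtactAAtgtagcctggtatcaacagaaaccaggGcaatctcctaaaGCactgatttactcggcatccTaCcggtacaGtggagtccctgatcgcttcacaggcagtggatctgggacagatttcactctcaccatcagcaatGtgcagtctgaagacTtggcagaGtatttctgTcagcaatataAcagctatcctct

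Ighv6-3: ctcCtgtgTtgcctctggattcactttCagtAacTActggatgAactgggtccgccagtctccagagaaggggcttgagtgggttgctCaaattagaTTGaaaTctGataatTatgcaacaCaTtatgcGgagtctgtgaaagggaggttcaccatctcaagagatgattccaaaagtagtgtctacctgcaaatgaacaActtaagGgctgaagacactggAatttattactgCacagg

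Iglv1: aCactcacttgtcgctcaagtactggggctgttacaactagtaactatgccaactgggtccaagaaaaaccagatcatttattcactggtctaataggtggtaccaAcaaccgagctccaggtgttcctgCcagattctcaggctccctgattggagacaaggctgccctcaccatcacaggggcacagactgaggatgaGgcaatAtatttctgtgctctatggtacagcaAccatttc

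Igkv4-50 (chr6:69700767-69701006, minus strand) led isotype replicate 2 and differed from its closest relative, Igkv4-68, at 20 of the 240 bases. Ighv1-26 (chr12:114788372-114788611, minus strand) led DTA-1 replicate 2 and differed from Ighv1-18 at 7 bases only. Igkv12-89 (chr6:68834846-68835085, minus strand) led DTA-1 replicate 3 and differed from Igkv12-46 at 36 bases. Igkv6-15 (chr6:70406469-70406708, minus strand) and Ighv6-3 (chr12:114391712-114391951, minus strand) ranked among the top 5 in both DTA-1 replicates 2 and 3, and differed from Igkv6-13 and Ighv6-6 at 14 and 21 bases. Iglv1 (chr16:19085017-19085256, minus strand), the leading lambda segment, differed from Iglv2 at 6 bases. How well a short read can be placed follows from these differences. Every stretch of 50 bases of the Igkv12-89 transcript was unique among V segment transcripts, as were 97.7% of stretches in Igkv4-50, 86.0% in Ighv6-3, 84.2% in Igkv6-15, 77.8% in Iglv1 and 51.0% in Ighv1-26. The median was 79.0% over the 81 genes, 8 of which lay under 50%, and 75.8% over the 137 functional segments below the read minimum. The sources used here do not give the read length or the treatment of reads with several matches, so 50 bases is an arbitrary length.

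The end of the variable exon carries the codons of a conserved cysteine preceded by a pair of tyrosines in most segments. The letters TANTANTGN, searched on the transcript strand in the last 40 bases, were found in 60 of the 81 genes (74.1%), in 76.6% of the other functional V segments and in 0.724% of 46254 other genes. Of the 6 segments printed above, Igkv6-15 and Iglv1 did not hold these letters. All 81 genes are annotated as functional, and none of the 130 listed pseudogenes reached 10 reads. Only 4 pseudogenes had any read, 11 in all. The genes lie at 3 loci: the listed Ighv genes span positions 113572927 to 116010093 of chromosome 12, the Igkv genes 67555497 to 70704177 of chromosome 6 and the Iglv genes 19085017 to 19260859 of chromosome 16 (GRCm38).

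The amount of V transcript varied more between libraries than between the groups. Isotype replicates 1, 2 and 3 held 7, 1086 and 46 V reads, and DTA-1 replicates 1, 2 and 3 held 172, 1473 and 1922. Scaled by TMM these were 0.258, 41.0 and 1.66 CPM with isotype and 7.48, 69.4 and 82.2 CPM with DTA-1. Isotype replicate 2 lay above DTA-1 replicate 1, so the groups overlapped. The group means were 14.3 ± 23.1 CPM with isotype and 53.0 ± 39.97 CPM with DTA-1 (SD, n = 3 each), a log2 ratio of 1.89. Without isotype replicate 2 that ratio was 5.79. The other 5 libraries left out in turn gave 1.32 to 2.41.

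**Figure D1:**
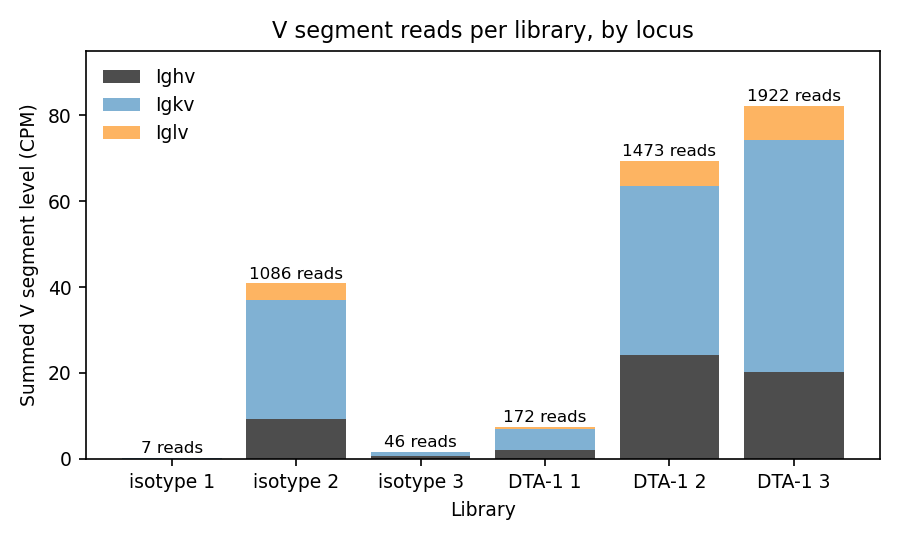
Stacked bars give the summed level of the 81 V segments in each library in CPM, split into heavy chain (Ighv), kappa (Igkv) and lambda (Iglv) segments, with the number of V reads above each bar. DTA-1 replicates 2 and 3 and isotype replicate 2 hold nearly all of the V reads, and isotype replicate 1 has 7.

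The 3 loci contributed in similar proportion in the libraries with many reads. Kappa segments took 67.9% of V reads in isotype replicate 2 and 65.7%, 56.6% and 65.8% in DTA-1 replicates 1, 2 and 3. Heavy chain segments took 22.4% and 26.2%, 35.0% and 24.6% in the same order. Lambda segments made up 12.6% of light chain V reads in isotype replicate 2 (exact 95% binomial interval 10.4% to 15.0%), and 11.02% (6.16% to 17.8%), 13.0% (10.98% to 15.3%) and 12.8% (11.1% to 14.6%) in DTA-1 replicates 1, 2 and 3. These 4 intervals overlap. Isotype replicates 1 and 3 had no lambda read among 6 and 26 light chain reads, where 0 reads allow shares of up to 45.9% and 13.2% by the same interval. All intervals cover counting error only, since reads are not independent molecules.

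V reads followed the constant genes, to which each V segment is joined. The 12 heavy, kappa and lambda constant genes summed to 11.4, 361.0 and 16.5 CPM with isotype and to 64.7, 652.2 and 837.3 CPM with DTA-1, each in the order of replicates 1, 2 and 3. V reads per 100 constant reads lay between 9.82 and 11.6 in 5 libraries. Isotype replicate 1 stood apart with 2.26, from 7 V reads and 310 constant reads, of which 130 were Ighm and 125 Igkc. No edgeR call was made among the 10 constant genes tested, although the fold change was above 0 for all 10, at a median of 1.84 (log2). Per library, Ighm stood at 4.79, 187 and 9.41 CPM with isotype and at 33.5, 359 and 369 CPM with DTA-1, the same order as the summed V level. The switched gene Ighg1 had 0, 713 and 3 reads with isotype and 0, 30 and 1373 with DTA-1, so its reads lay almost all in isotype replicate 2 and DTA-1 replicate 3. Ighg3 had 36 and 314 reads in those libraries and at most 8 in any other. Ighg2c, another switched gene, was spread differently, with 11, 20 and 22 reads with isotype and 89, 163 and 369 with DTA-1. Its groups did not overlap, and its log2 fold change was 3.797 ± 0.61 (SE) in edgeR (adjusted p = 0.39), while DESeq2 called it higher (adjusted p = 4.46e-07). Ighg2b had 26, 166 and 3 reads with isotype and 24, 509 and 519 with DTA-1, Igha had 6, 65 and 5 against 11, 69 and 81, and Ighd had 4, 7 and 0 against 15, 16 and 32. Ighe, the IgE gene, had at most 5 reads in any library.

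**Figure D2:**
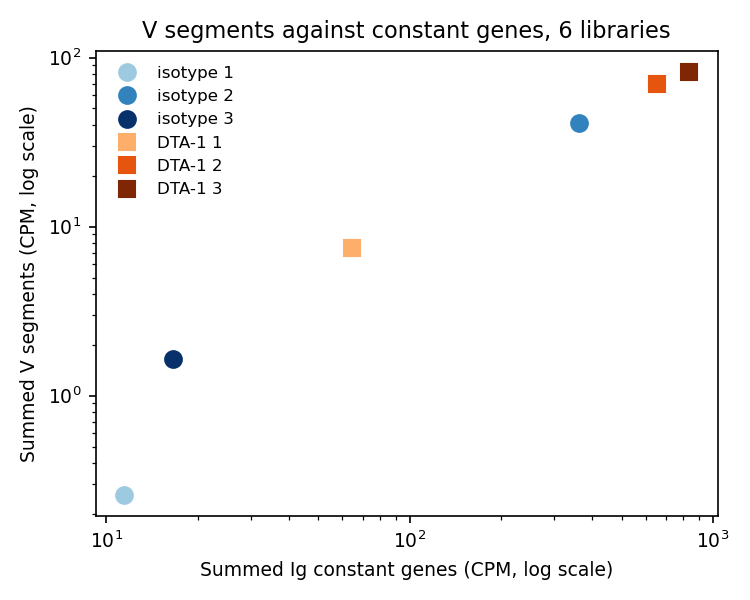
Each point is 1 library, with the summed level of 12 immunoglobulin constant genes on the x axis and of the 81 V segments on the y axis, both in CPM on log scales (circles, isotype; squares, DTA-1). The order of the libraries is the same on both axes, and isotype replicate 1, at 0.258 CPM of V segments, lies lowest.

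The number of segments seen was higher in libraries with more V reads. At least 1 read was found for 6, 58 and 20 of the 81 segments with isotype (replicates 1, 2 and 3), and for 38, 65 and 71 with DTA-1. The means were 28.0 ± 26.9 and 58.0 ± 17.6 (SD, n = 3 each), and the groups overlapped. For 7 reads drawn from each library, the depth of isotype replicate 1, the expected number was 6, 5.40 and 6.05 with isotype and 6.30, 6.23 and 5.88 with DTA-1, a difference of means of 0.322 segments against 30.0 without drawing. No more than 7 segments can be seen in 7 reads, so that depth could show little difference. For 46 reads the expected number was 18.5 in isotype replicate 2, 20 in isotype replicate 3 and 24.3 to 24.6 in the DTA-1 libraries. For 172 reads it was 34.2 in isotype replicate 2 and 38.0, 43.9 and 46.9 in DTA-1 replicates 1, 2 and 3. For 1086 reads it was 58.0 in isotype replicate 2, 63.1 in DTA-1 replicate 2 and 68.4 in DTA-1 replicate 3. At 46, 172 and 1086 reads each DTA-1 library deep enough to be drawn was expected to show more segments than each such isotype library. However, 172 and 1086 reads leave 1 isotype library and 46 reads leave 2.

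**Figure D3:**
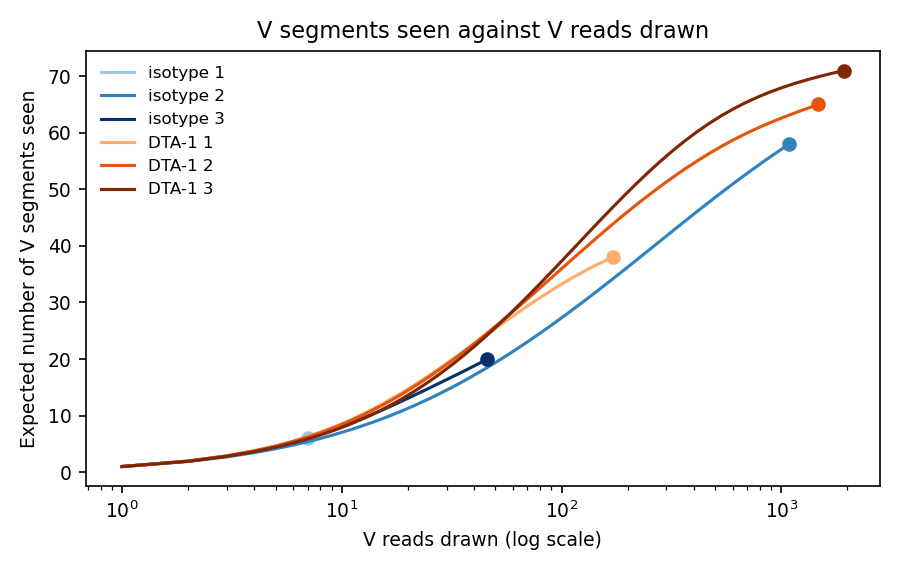
Curves give the expected number of the 81 V segments seen when a given number of V reads is drawn without replacement from each library (x axis, log scale), and dots mark the whole library. The curve of isotype replicate 2 runs below those of DTA-1 replicates 2 and 3 and ends at 58 segments.

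Isotype replicate 2 and DTA-1 replicates 2 and 3, which held the most V reads, were each led by a segment that was rare or missing in the others. DTA-1 replicate 1, with 172 V reads, was led by Igkv10-96 (14 reads, 8.14%), which had 126 reads in isotype replicate 2. Igkv4-50 had 284 reads in isotype replicate 2 and 0 in the other 5 libraries. It made up 26.2% of V reads there (23.6% to 28.9%) and 38.5% of kappa V reads. Igkv12-89 had 439 reads in DTA-1 replicate 3, 9 in DTA-1 replicate 2, 4 in DTA-1 replicate 1 and 0 in all isotype libraries. It made up 22.8% of V reads in DTA-1 replicate 3 (21.0% to 24.8%) and 34.7% of its kappa V reads. Ighv1-26 had 156 reads in DTA-1 replicate 2, 7 in DTA-1 replicate 3, 4 in isotype replicate 2 and 0 elsewhere. It made up 10.6% of V reads in DTA-1 replicate 2 (9.07% to 12.3%) and 30.3% of its heavy chain V reads. Its close relative Ighv1-18 had 11 of its 14 reads in the same library.

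Such uneven spread was common among the 81 segments. Of the 27 segments with 50 or more reads, 6 had 90% or more of them in 1 library: Igkv4-50, Igkv12-89, Ighv1-26, Ighv1-69, Igkv14-100 and Igkv4-59. Over all 81 segments 67 had 50% or more of their reads in 1 library and 19 had 90% or more. The highest level was in DTA-1 replicate 3 for 38 segments, DTA-1 replicate 2 for 25, isotype replicate 2 for 16 and DTA-1 replicate 1 for 2. A read in all 6 libraries was found for 2 segments, Igkv1-110 and Igkv3-2, and 9 segments were read in 1 library only.

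**Figure D4:**
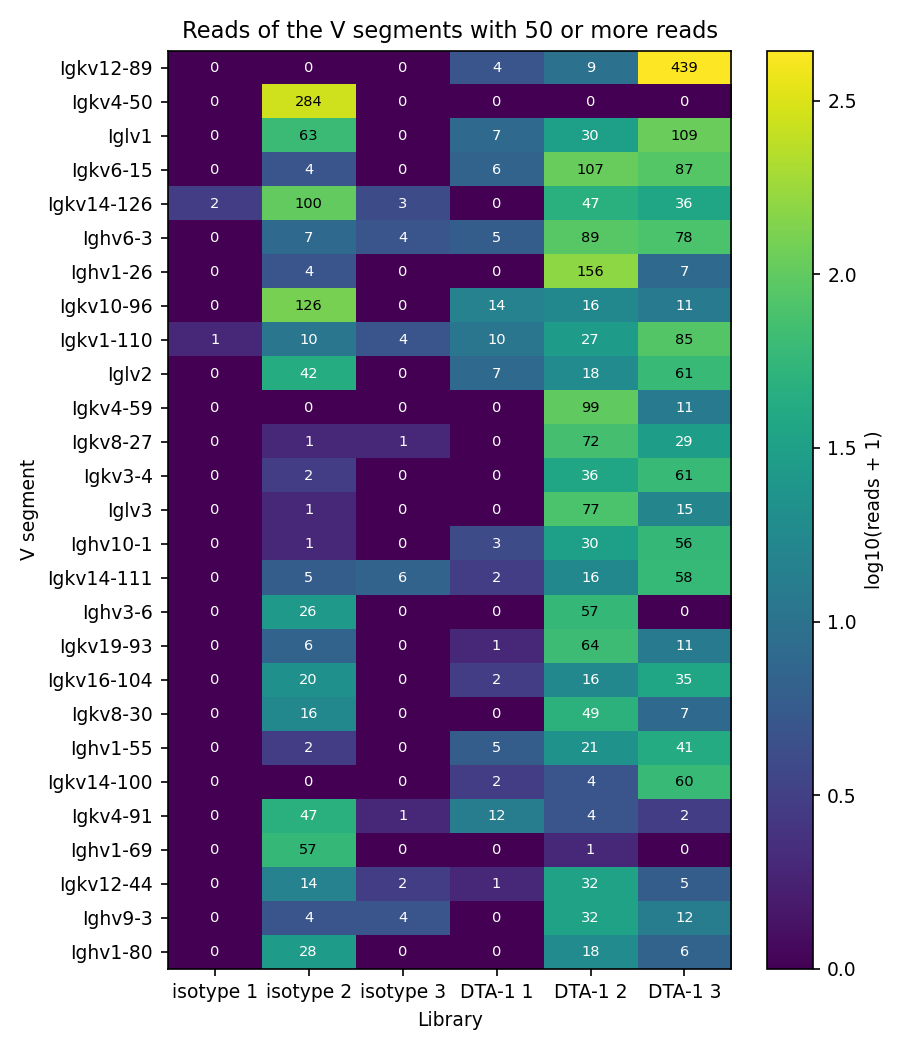
Rows are the 27 V segments with 50 or more reads over the 6 libraries and columns are the libraries. Numbers give the reads and color gives log10(reads + 1). The leading segment of each library with many reads (284 for Igkv4-50, 156 for Ighv1-26 and 439 for Igkv12-89) has few or no reads in the other columns.

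The 5 leading segments took 58.0% of V reads in isotype replicate 2 (55.0% to 61.0%), and 33.1% (26.2% to 40.7%), 35.8% (33.4% to 38.4%) and 41.5% (39.3% to 43.8%) in DTA-1 replicates 1, 2 and 3. In isotype replicates 1 and 3 the top 5 held 6 of 7 and 22 of 46 reads, 85.7% (42.1% to 99.6%) and 47.8% (32.9% to 63.1%). The means were 63.9% ± 19.6 with isotype and 36.8% ± 4.28 with DTA-1 (SD, n = 3 each), and the highest DTA-1 share, 41.5%, was below the lowest isotype share, 47.8%. Leading segments are picked after counting, which raises the share where reads are few, as in isotype replicates 1 and 3, and the interval of isotype replicate 3 overlaps those of all DTA-1 libraries. Isotype replicate 2 had more V reads than DTA-1 replicate 1 and a higher share, and its interval lies above those of all DTA-1 libraries. Counted per kilobase of exon, the share was 58.7% in isotype replicate 2 and 33.1%, 36.5% and 42.5% in DTA-1 replicates 1, 2 and 3.

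The effective number of segments, the inverse of the summed squared shares, is lower where few segments dominate. In the order of replicates 1, 2 and 3 it was 5.44, 9.57 and 14.3 with isotype and 24.2, 24.1 and 14.2 with DTA-1. DTA-1 replicate 3, where Igkv12-89 led, lay just below isotype replicate 3, so by this measure the groups overlapped. By the share of the single leading segment they overlapped as well: 28.6%, 26.2% and 13.0% with isotype against 8.14%, 10.6% and 22.8% with DTA-1. Among heavy chain V reads alone, the top 5 took 65.8% in isotype replicate 2 and 64.4%, 70.7% and 48.7% in DTA-1 replicates 1, 2 and 3. Among kappa V reads they took 78.6% in isotype replicate 2 and 50.4%, 46.9% and 57.9% in DTA-1 replicates 1, 2 and 3. The higher concentration in isotype replicate 2 was in its kappa reads, while its heavy chain value lay within the range of the DTA-1 libraries.

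**Figure D5:**
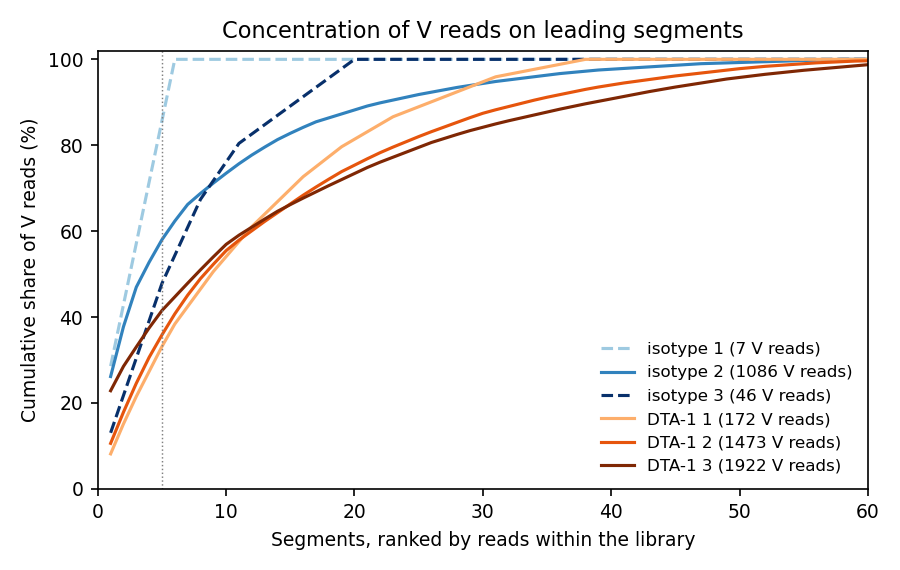
Lines give the cumulative share of V reads (y axis, %) held by segments ranked by reads within each library (x axis), and the dotted vertical line marks 5 segments. Dashed lines are the 2 libraries with under 100 V reads. Isotype replicate 2 reaches 58.0% at 5 segments, above the 33.1% to 41.5% of the DTA-1 libraries.

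Libraries differed from each other in which segments they used, within the DTA-1 group as well as between groups. DTA-1 replicates 2 and 3 shared 2 of their 5 leading segments, Igkv6-15 and Ighv6-3, and DTA-1 replicates 1 and 3 shared Igkv1-110. Isotype replicate 2 shared Igkv10-96 with DTA-1 replicate 1 and Iglv1 with DTA-1 replicate 3, and none with DTA-1 replicate 2. The sum over segments of the smaller of the shares in each pair of libraries was 39.8% for DTA-1 replicates 2 and 3, 40.2% for DTA-1 replicates 1 and 3 and 30.9% for DTA-1 replicates 1 and 2. For isotype replicate 2 it was 32.1%, 27.0% and 24.1% against DTA-1 replicates 1, 2 and 3. The value for isotype replicate 2 and DTA-1 replicate 1 thus exceeded that for DTA-1 replicates 1 and 2.

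Grouped by sequence family, the heavy chain reads were led by Ighv1, the largest mouse family. Its 15 members took 55.6% of heavy chain V reads in isotype replicate 2 and 40%, 48.9% and 41.3% in DTA-1 replicates 1, 2 and 3. Ighv6 took 4.12% in isotype replicate 2, where Ighv3, Ighv2, Ighv5 and Ighv9 held more, and 20% (4 of 20 reads) in isotype replicate 3. It took 22.2%, 18.4% and 16.7% in DTA-1 replicates 1, 2 and 3, so the groups overlapped, and Ighv6-3 had 5 of 10, 89 of 95 and 78 of 79 of those reads. Among kappa families Igkv4 took 46.4% in isotype replicate 2, mostly Igkv4-50, against 21.2%, 19.3% and 7.67% in the DTA-1 replicates. Igkv12 took 35.1% in DTA-1 replicate 3, mostly Igkv12-89, and 2.44% to 7.69% in the other libraries with over 6 kappa reads. Position along the locus varied by library. When each locus was cut at its median distance from the J segments, the nearer Ighv genes held 58.3% of all heavy chain V reads, 45.3% in isotype replicate 2 and 64.4%, 55.0% and 67.6% in DTA-1 replicates 1, 2 and 3. The nearer Igkv genes held 50.1% in isotype replicate 2 and 38.9%, 66.7% and 30.3% in DTA-1 replicates 1, 2 and 3. The cut was made over all listed genes, and the nearer part held 21 of the 33 Ighv members and 24 of the 45 Igkv members.

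The lambda segments were read alongside their constant genes. Iglv1 had 63 reads in isotype replicate 2 and 7, 30 and 109 in DTA-1 replicates 1, 2 and 3. Iglv2 had 42, 7, 18 and 61 in the same order. Iglv3 had 1, 0, 77 and 15, and so led the lambda reads of DTA-1 replicate 2 with 61.6% of them (52.5% to 70.2%). In that library lambda took 13.0% of light chain V reads but 5.79% of light chain constant reads. The constant share was 13.3% in isotype replicate 2, and 11.5% and 11.2% in replicates 1 and 3 of DTA-1, near the V shares. Iglv1 and Iglv2 differ at 6 of the 240 bases compared, so their reads can be exchanged and their levels are uncertain. How alike the constant genes Iglc1 to Iglc3 are was not measured, and whether their reads were exchanged was not tested.

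Whether single segments differed with DTA-1 was tested with edgeR's quasi-likelihood test over all genes. The filter on low counts left 7 of the 81 segments among 15763 genes, and edgeR called none of the 7, as it called none of all genes (0% of the background). At an unadjusted p under 0.05 edgeR counted 1 of the 7, Igkv1-110, on the higher side, where 5.21% of all genes tested were counted. Igkv1-110, a kappa segment, had 1, 10 and 4 reads with isotype and 10, 27 and 85 with DTA-1, and averaged 0.186 ± 0.174 against 1.78 ± 1.66 CPM (SD, n = 3 each). Its lowest DTA-1 library, replicate 1, stood at 0.435 CPM and its highest isotype library, replicate 2, at 0.377. Both values came from 10 reads, so this gap rested on the TMM scaling. By library totals, 23802493 in DTA-1 replicate 1 and 23147873 in isotype replicate 2, their order was reversed and the groups overlapped. Of the transcript stretches of Igkv1-110, 49.1% were unique among V segment transcripts, so part of its reads may be misplaced. EdgeR put the log2 fold change at 3.23 ± 0.99 (SE, adjusted p = 0.39).

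The other 6 segments tested lay on both sides. Igkv1-117 had a log2 fold change of 1.79 ± 1.141 (SE), Igkv16-104 of 1.63 ± 1.47, Iglv1 of 1.43 ± 1.67 and Iglv2 of 1.25 ± 1.53, with adjusted p from 0.49 to 0.713 in edgeR. Igkv10-96 had -1.37 ± 1.69 (adjusted p = 0.716) and Igkv14-126 had -0.07 ± 1.61 (adjusted p = 0.985). Both negative values rested on isotype replicate 2, where Igkv10-96 had 126 reads and Igkv14-126 had 100. In the other libraries Igkv10-96 had 0 reads with isotype and 14, 16 and 11 with DTA-1, and Igkv14-126 had 2 and 3 with isotype and 0, 47 and 36 with DTA-1. Without isotype replicate 2 both fitted changes had the opposite sign, with an adjusted p of 0.752 for each in edgeR. No fold change is given for Igkv10-96 there, since the remaining isotype libraries had 0 reads. The positive values depended on single libraries as well. All isotype reads of Igkv1-117, Igkv16-104, Iglv1 and Iglv2 (10, 20, 63 and 42) came from isotype replicate 2. Without DTA-1 replicate 3 their log2 fold changes were 1.75, 0.73, 0.12 and 0.13.

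A fit on all 20481 genes with 10 or more reads in total held all 81 segments. None passed edgeR's adjusted threshold there either, as none of all genes did (0% of the background), with 0.436 as the smallest adjusted p. Without adjustment, 35 of the 81 had an edgeR p under 0.05 on the higher side with DTA-1 (43.2%) and 0 on the lower side, against 4.52% of all genes on the higher side. The fold change was above 0 for 70 of the 81 (86.4%, against 46.6% of all genes), and its median was 3.43 (log2) against -0.04 over all genes. With the segments at 0 in a whole group set to the bound that 3 reads over that group allow, the median was 2.98. The 3 DTA-1 values were all above the 3 isotype values in 19 segments (23.5%), against a background of 7.75% of genes, and all below in 0. Scaled by library totals only, the count was 14, with no background computed. Some of the 19 had only 1 or 2 reads in a DTA-1 library. Ighv1-18 had 1 read in isotype replicate 2 and 1 each in DTA-1 replicates 1 and 3. With TMM scaling and 1 library fewer to overlap, the count was 29 when isotype replicate 2 was left out, against 10.1% of genes. It was 42 when DTA-1 replicate 1 was left out, against 18.3%. Of the 81, 18 had no read in any isotype library (22.2%, against 0.151% of genes), and 3 had none in any DTA-1 library, Igkv4-50, Ighv2-9 and Ighv1-20. The background genes were not matched to the segments by read number, and a gene with few reads reaches 0 more easily. Segments enter the 81 by their read sum, so those read in 1 group only were bound to differ between groups. The segments are read from the same B lineage cells of each library and are not independent, and 59 of them had no read in isotype replicates 1 and 3.

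DESeq2, run as an alternative, tested 31 of the 81 segments and called 7 as higher with DTA-1 (22.6%, against a background of 0.252% of genes). These were the heavy chain segments Ighv6-3, Ighv10-1 and Ighv1-55 and the kappa segments Igkv6-15, Igkv8-27, Igkv14-100 and Igkv1-135. Igkv6-15 had 0, 4 and 0 reads with isotype and 6, 107 and 87 with DTA-1, or 0.050 ± 0.087 against 3.01 ± 2.47 CPM (SD, n = 3 each). Its DTA-1 libraries all lay above the isotype libraries, DTA-1 replicate 1 only just, at 0.261 against 0.151 CPM. By DESeq2 its log2 fold change was 5.95 ± 1.27 (SE), with 0.00237 as adjusted p. Ighv6-3 had 0, 7 and 4 reads with isotype and 5, 89 and 78 with DTA-1, with DTA-1 replicate 1 inside the isotype range. Its log2 fold change by DESeq2 was 4.28 ± 1.11 (SE), with an adjusted p of 0.0258. The other 5 had 0 to 2 reads in the isotype libraries together, so no fold change is given, and adjusted p from 0.00864 to 0.0385 in DESeq2. DESeq2 filters genes by mean count, so these 5 entered the test through their DTA-1 reads. Ighv10-1 had 1 isotype read, in replicate 2, and 3, 30 and 56 reads with DTA-1. Igkv14-100 had no isotype read and 2, 4 and 60 with DTA-1, so most of its reads came from DTA-1 replicate 3. Igkv1-135 had 1 isotype read and 6, 17 and 14 with DTA-1, the most even of the 7 across the DTA-1 libraries.

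These DESeq2 calls depended on single libraries. Without DTA-1 replicate 2 or DTA-1 replicate 3 DESeq2 called none of the 7 (background 0.0118% and 0.0607% of genes called higher), and the adjusted p of Igkv6-15 became 0.137 and 0.469. Without isotype replicate 1 it called Igkv6-15 alone (adjusted p = 0.0091) among V segments, against 0.119% of all genes. Without isotype replicate 3 it called Igkv6-15 (0.00507), Ighv6-3 and Igkv12-89, where 4.2% of all genes were called higher. Without isotype replicate 2 it called 7 segments, 4 of them among the first 7 (Ighv1-55, Ighv10-1, Ighv6-3 and Igkv6-15), against 0.136% of all genes. The number of segments that DESeq2 tested changed with each refit. It was 42, 38 and 11 without isotype replicates 1, 2 and 3, and 28 and 11 without DTA-1 replicates 2 and 3. Without DTA-1 replicate 1 DESeq2 called 13 of 22 tested segments as higher, against 5.45% of all genes, and Igkv4-50 as lower, against 10.4%. Igkv4-50 was also called lower without DTA-1 replicate 2 (against 0.229% of genes) and without DTA-1 replicate 3 (against 0.222%), although all of its 284 reads came from isotype replicate 2. EdgeR called 8 of 26 tested segments as higher without DTA-1 replicate 1 (30.8%, against 0.38% of genes), Ighv10-1, Ighv1-55, Igkv8-27, Igkv8-24, Igkv3-4, Igkv6-15, Igkv1-135 and Iglv3, with adjusted p from 0.0308 to 0.0499. It called 0 with any other library left out. Without DTA-1 replicate 1 edgeR's filter asked for reads in 2 libraries only, and the segments tested rose from 7 to 26. Segments high in DTA-1 replicates 2 and 3 could pass through these libraries alone. Igkv8-24 did so, with 0 isotype reads and 19 and 17 reads there. The share called was thus partly set by the filter. Limma-voom called 0 of the 7 segments it tested and 0% of all genes. It put 2 of the 7 at an unadjusted p under 0.05, both higher, against 5.28% of genes.

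B cell surface and identity genes were low in all libraries, with higher levels in each DTA-1 library for some. Ms4a1, which encodes CD20, had 0, 15 and 2 reads with isotype and 23, 37 and 36 with DTA-1, and its edgeR log2 fold change was 2.73 ± 1.01 (SE, adjusted p = 0.39). Of the 16 genes of the B cell list, edgeR tested 10 and called 0, with 6 at an unadjusted p under 0.05, all higher, against 5.21% of genes. The list summed to 37.0, 29.6 and 47.9 CPM with isotype and 52.9, 76.4 and 75.6 with DTA-1. Most of that sum was Ebf1, which other cells of the tissue also express, with 531 to 1338 reads per library. DTA-1 replicate 1, with 172 V reads, had more Ms4a1 reads than isotype replicate 2, with 1086 V reads, so the order of these libraries for Ms4a1 was opposite to that for V segments.

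Genes of antibody secretion followed the V reads in part. Jchain, which links IgM and IgA subunits, had 20, 573 and 39 reads with isotype and 98, 509 and 1192 with DTA-1. Mzb1, a chaperone of antibody assembly, had 17, 47 and 9 with isotype and 11, 48 and 291 with DTA-1. Of the 12 plasma cell genes, edgeR tested 11, with none called, 0 at an unadjusted p under 0.05 and a median log2 fold change of 0.19. The fold change was above 0 for 7 of the 11. Sdc1, Xbp1 and Prdm1 of that list are also epithelial genes and together made up most of the list sum. Their log2 fold changes in edgeR were negative, at -1.12, -0.22 and -0.91. The list summed to 770.9, 569.5 and 550.6 CPM with isotype and to 530.2, 345.5 and 316.4 CPM with DTA-1. Pou2af1, a coactivator of octamer-driven V promoters, had 5, 23 and 0 reads with isotype and 18, 45 and 61 with DTA-1. Genes of recombination had few or no reads: Rag2 and Vpreb2 had 0 reads in all 6 libraries, and the 7 genes of that list summed to at most 0.577 CPM. Of the germinal center list, edgeR tested 6 genes and called none, with 0 at an unadjusted p under 0.05. T cell genes had negative fold changes in all 11 tested (median -0.92, log2), with 2 on the lower side at an unadjusted p under 0.05, against 7.52% of genes. The list of lymphoid stroma and high endothelium (median 0.56, 4 tested), the octamer factors (median -0.10, 3 tested), the J segments (median 2.49, 3 tested) and the IgA transport genes (median 1.11, 2 tested) had 0 calls in edgeR and 0 at an unadjusted p under 0.05.

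The genes outside the antibody and T cell receptor loci whose level across the 6 libraries was most like the summed V level were Fgfr1, Jchain, Btnl9, Sox10 and Crebl2, chosen among 13708 genes by rank and then by Pearson correlation of log2 CPM. Each had a Spearman correlation of 1 and a Pearson correlation between 0.978 and 0.998 over 6 libraries, which the choice favors. Left without isotype replicates 1 and 3, the libraries farthest from the median, the correlations over 4 libraries were 0.963 or higher. Jchain ran from 0.737 CPM in isotype replicate 1 to 51.0 in DTA-1 replicate 3. Fgfr1, a growth factor receptor gene, moved far less, from 69.2 to 124.8 CPM.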

How the data were processed

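RNA-seq read counts of 6 libraries were analysed, 3 per group, with groups and replicate numbers taken from the labels. The authors deposited whole-number counts per Ensembl gene without normalization, per the file headers. Build mm10 and the tools STAR, cutadapt 1.13, DESeq2 1.14.1 and HTSeq 0.6.1p1 are named per the submitters' processing notes. The sources used here do not give their roles and settings, the strand setting or the treatment of multiply matched reads, so reads of near-identical V segments and constant genes are uncertain. Gene IDs were matched to symbols and positions of GENCODE release M21 (GRCm38), and 153 of 54232 had no symbol.

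Total counts ranged from 23147873 to 29065162. 3 reads correspond to 0.108 to 0.141 CPM, a floor for counting error only. Counts were filtered with filterByExpr, scaled by TMM and tested with edgeR 4.0.16 in R 4.3.3 (robust quasi-likelihood, treatment only, Benjamini-Hochberg adjustment over all genes at 0.05). DESeq2 1.42.0 and limma 3.58.1 were alternatives, with other scalings, filters, a replicate block and each library left out. The fits were tested on simulated counts, where a larger share of the calls was false with DESeq2 than with edgeR or limma-voom. These counts were drawn with the dispersions that edgeR estimated, for the genes that passed its filter. The setting may thus favor edgeR, and it left out most V segments, so it does not grade the DESeq2 calls on them. No p is given for sums or shares over segments. Intervals are exact Clopper-Pearson intervals at 95%.

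Named segments were the 5 with most reads in each library, the 5 with the smallest edgeR p in each direction and the leading segment of each locus, with the 5 genes most like the summed V level and the antibody constant genes. Segments called by DESeq2 and other genes of the lists were named after their values were seen. The members and the 16 gene lists were chosen with earlier results of these data known. No 2 libraries agreed within sampling noise (lowest median chi-square over genes 3.98, where noise alone gives 0.455).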

Additional observations from a re-analysis of the deposited data

How the results depend on the processing

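The count of 0 V segments called by edgeR was also 0 under RLE, upper quartile and total-count scaling, both looser filters, limma-voom and the replicate block, and 0 to 8 with single libraries left out, 8 without DTA-1 replicate 1. By DESeq2 it was 7 with all libraries and, in refits chosen after seeing the data, 1 to 14 with single libraries left out: 1 without isotype replicate 1, DTA-1 replicate 2 or DTA-1 replicate 3, 3 without isotype replicate 3, 7 without isotype replicate 2, and 14 when DTA-1 replicate 1 was left out. The log2 ratio of the summed V level (1.89) ran from 1.32 to 5.79 with single libraries left out, and was 3.75 as the mean over same-numbered libraries in a replicate block. The labels do not say that replicate numbers pair the libraries. Deviations from the group means correlated at 0.02, -0.33 and -0.09 within numbers, which cannot decide this with 3 libraries per group. The block changed no call. The difference in segments seen (30.0) was 19.0 to 45.0 with single libraries left out. It was 0.322 at the depth of the smallest library, 7 reads, where no more than 7 segments can be seen. The difference in the top 5 share (-27.0 percentage points) was -8.73 for the top segment alone and -35.0 to -16.1 with single libraries left out, and that in the effective number (11.1) was 8.92 to 14.4. Signs turned for Igkv14-126 (-0.07) to 0.0038 by upper quartile scaling, 0.26 by limma-voom and 0.60 with the replicate block, and for Igkv10-96 (-1.37) to 2.41 by limma-voom and 1.39 with the block. With single libraries left out, Igkv14-126 ran from -0.77 to 3.72 (0.51 without DTA-1 replicate 1), Igkv10-96 from -1.94 to 6.92 (fitted against isotype libraries with 0 reads, so neither a measured fold nor a bound), Ighg1 from -3.67 to 8.42 and Iglc1 from -1.02 to 7.78, where the lowest values of Ighg1 and Iglc1 were those without DTA-1 replicate 3 and the highest values were those without isotype replicate 2. The cause was not tested.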
